A study of Mus musculus with 15 samples.

Results

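Microfibril and elastic fibre genes were followed across 15 Affymetrix Mouse Gene arrays of cultured mouse mammary cells. The set comprised 10 listed genes: Mfap2, Mfap4, Mfap5, Fbn1, Fbn2, Eln, Efemp1, Efemp2, Fbln1 and Fbln5. Of these, 8 had a probe set annotated with exactly 1 gene symbol, out of 19938 such genes on the array. Fbn1 and Efemp2 had none and are not analysed here. Where a gene has several probe sets, the one to use was chosen by the highest mean intensity over all arrays, but this decided nothing, because each of the 8 genes had a single probe set. No level filter was applied, so all 8 entered every test.

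The cells were mammary epithelial cultures from female mice of 8 weeks, in 5 groups of 3 arrays. The p53- Rb- Myc+ group carried deletions of p53 and Rb and a retrovirus for MYC overexpression. The p53- Myc+ group carried the p53 deletion and the same retrovirus, the p53- Rb- group both deletions, the p53- group the p53 deletion alone, and the WT group neither deletion nor retrovirus. Cre recombinase, an enzyme that excises marked DNA, was delivered by an adenovirus. Whether the WT cultures were given an empty virus is not stated in the labels, so virus infection and deletion of p53 cannot be told apart in comparisons with WT, nor retrovirus infection and MYC in comparisons with groups lacking Myc+. Nothing says that arrays of 1 group stem from different mice or dishes, and the p-values therefore cover only the spread between these samples, which may be technical.

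Microfibrils are thin extracellular filaments built from fibrillins, which Fbn1 and Fbn2 encode. Microfibril-associated glycoproteins, among them the products of Mfap2 and Mfap5, attach to fibrillin, and microfibrils hold latent growth factors of the TGF-beta family in the matrix. Elastic fibres form when tropoelastin, the product of Eln, is deposited on microfibrils with the help of fibulins and is cross-linked by lysyl oxidases. In the mammary gland these fibres belong to the stroma around the ducts, and fibroblasts and smooth muscle cells are their usual source.

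The arrays were first set against their labels. Rb1 intensity was 17.9 to 20.0 in p53- Rb- Myc+, 26.8 to 48.0 in p53- Myc+, 52.7 to 64.2 in p53- Rb-, 147 to 181 in p53- and 86.5 to 104 in WT arrays. Rb1 was therefore low in p53- Myc+ arrays as well, although these are not labelled Rb-. The mouse Myc probe set read 87.1 to 162 over the 6 arrays labelled Myc+ and 779 to 1046 over the 9 others, and it went against the Myc+ label; whether it detects the retroviral transcript is not given in the sources used here. Summed intensity of 14 epithelial markers was 694 to 774 in p53- Rb- Myc+ and 219 to 287 in p53- Myc+ arrays, against 21120 to 23130 in p53- Rb-, 20100 to 22940 in p53- and 23370 to 24060 in WT arrays. Of these markers 8 averaged under 16 in p53- Rb- Myc+ and 10 in p53- Myc+ arrays, with Epcam, Krt5 and Krt17 among both, so the label of epithelial cells was not borne out there. Summed intensity of 16 fibroblast markers was 7690 to 8525 in p53- Rb- Myc+, 9460 to 10350 in p53- Myc+, 7466 to 9883 in p53- Rb-, 4473 to 4581 in p53- and 5123 to 5745 in WT arrays. Every direction involving Rb- or Myc+ given here is therefore that of the arrays so labelled. Array medians lay between 41.3 and 54.9. In RNA from a whole culture, fewer cells of a type and less RNA per cell cannot be told apart.

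**Figure D1:**
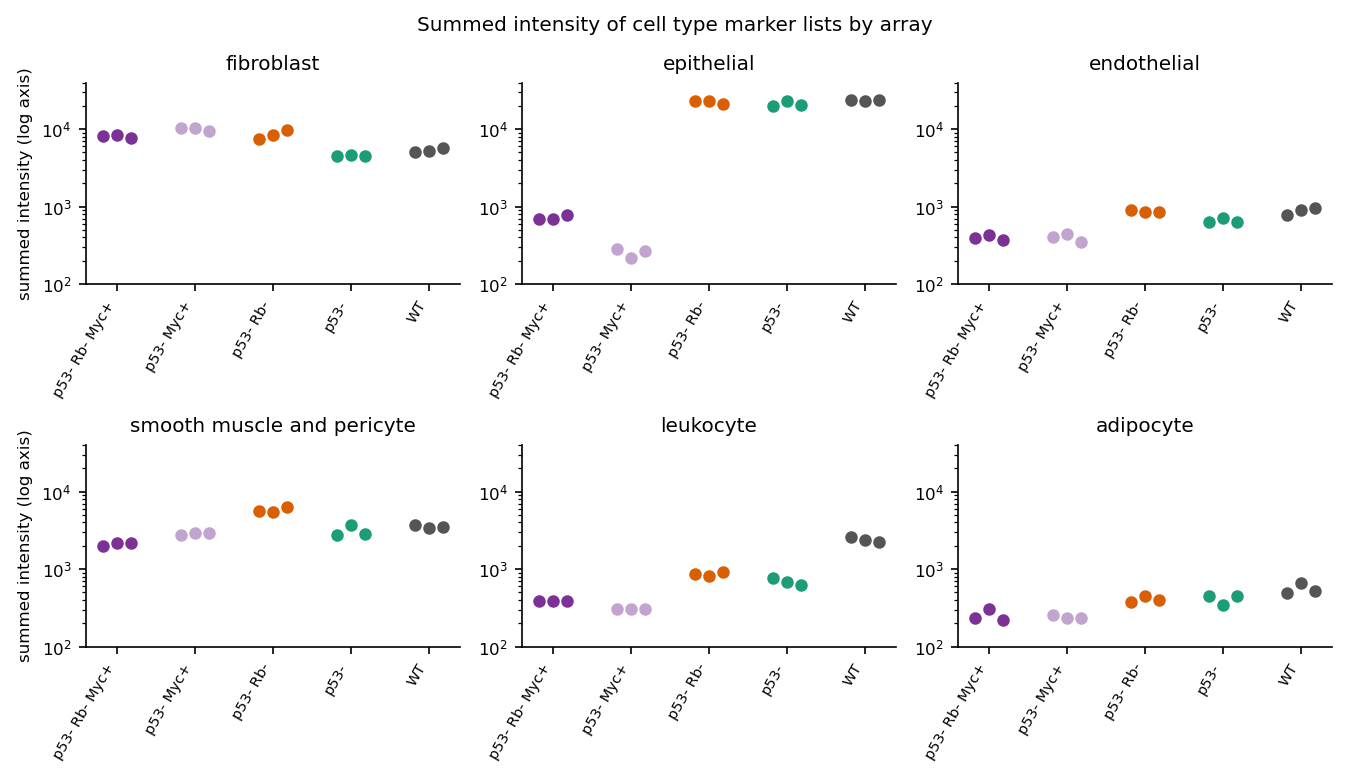
Summed intensity (log axis, arbitrary units) of the markers of 6 cell types in each array, with groups along the x axis and 1 point per array. Epithelial sums were at most 774 in both Myc+ groups and at least 20100 in the other 3 groups, and fibroblast sums were lowest in the p53- arrays, at 4473 to 4581.

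Of the 8 genes, 6 differed widely between groups and 2 stayed nearly level. On the log2(intensity + 16) scale the highest and lowest group means were 5.44 apart for Efemp1, 4.19 for Mfap5, 3.83 for Mfap4, 2.55 for Fbln1, 2.44 for Fbln5 and 2.35 for Fbn2. For Mfap2 this range was 0.41 and for Eln it was 0.38, against a median of 0.68 over all genes. The genes with a wide range did not share 1 highest group: Mfap4, Mfap5 and Fbln5 were highest in p53- Rb- arrays, Fbn2 and Fbln1 in p53- Myc+ arrays, and Efemp1 in p53- Rb- Myc+ arrays. Mfap5 and Fbln5 had the same order of group means, and the other genes with a wide range each had a different one. Levels were compared between groups for 1 probe set at a time and never between genes.

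**Figure D2:**
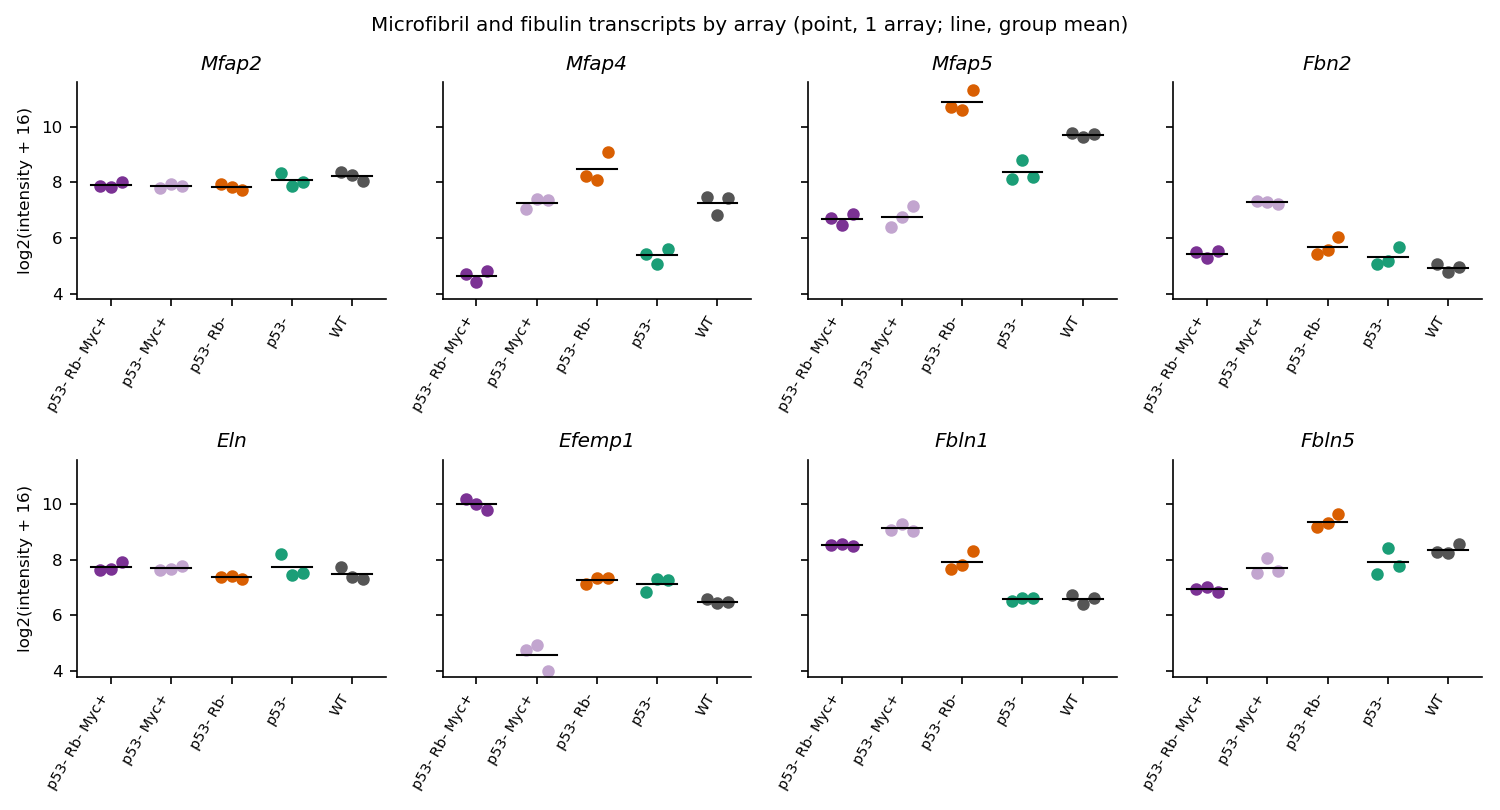
log2(intensity + 16) of 8 microfibril and fibulin genes in each array (points) with group means (lines). Mfap4, Mfap5 and Fbln5 had their highest points in p53- Rb- arrays, Fbn2 and Fbln1 in p53- Myc+ arrays and Efemp1 in p53- Rb- Myc+ arrays, while group means of Mfap2 and Eln stayed within 0.41 and 0.38.

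The microfibril-associated proteins did not move together. Mfap5, whose product MAGP-2 binds fibrillin and the Notch ligand jagged-1, had intensities of 89.9, 72.8 and 102 in p53- Rb- Myc+, 67.5, 91.1 and 125 in p53- Myc+, 1667, 1554 and 2534 in p53- Rb-, 261, 431 and 279 in p53-, and 861, 774 and 833 in WT arrays. The p53- Rb- arrays were all above the WT arrays, these were all above the p53- arrays, and these in turn were all above both Myc+ groups, which overlapped each other. Mfap4 encodes a fibrinogen-related glycoprotein that binds tropoelastin and associates with elastic fibres. Its intensities were 9.91, 5.38 and 12.0 in p53- Rb- Myc+, 115, 151 and 149 in p53- Myc+, 286, 253 and 531 in p53- Rb-, 27.3, 17.5 and 32.9 in p53-, and 162, 96.3 and 158 in WT arrays. The p53- Rb- arrays were highest, p53- Myc+ and WT arrays overlapped, and all p53- Rb- Myc+ arrays lay below all p53- arrays. Mfap2, whose product MAGP-1 is a core microfibril component, had intensities of 216, 212 and 242 in p53- Rb- Myc+, 205, 231 and 218 in p53- Myc+, 229.5, 210.1 and 196 in p53- Rb-, 304, 219.7 and 246 in p53-, and 318, 294 and 251 in WT arrays. Every group overlapped its neighbour in the order of Mfap2 means, whose ends were 212 in p53- Rb- and 288 in WT arrays. All WT arrays were nevertheless above all p53- Rb-, p53- Myc+ and p53- Rb- Myc+ arrays.

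Of the fibre-forming proteins, the fibrillin differed widely between groups and elastin little. Fbn2 encodes fibrillin-2, the fibrillin best known from developing tissue. Its intensities were 28.8, 22.4 and 30.3 in p53- Rb- Myc+, 146, 140.5 and 133 in p53- Myc+, 27.1, 31.9 and 49.7 in p53- Rb-, 17.3, 20.4 and 34.8 in p53-, and 17.8, 11.1 and 14.8 in WT arrays. All 3 p53- Myc+ arrays lay above the other 12, which were all below the array medians apart from 1 p53- Rb- array at 49.7. Eln had intensities of 185, 187 and 229 in p53- Rb- Myc+, 182, 187 and 206 in p53- Myc+, 152, 155 and 143 in p53- Rb-, 279.5, 161 and 169 in p53-, and 201, 151 and 144 in WT arrays. Every group overlapped its neighbour in the order of Eln means, whose ends were 150 in p53- Rb- and 203 in p53- arrays. All p53- Rb- arrays were nevertheless below all p53-, p53- Myc+ and p53- Rb- Myc+ arrays.

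The 3 measured fibulins each followed a different pattern. Efemp1 encodes fibulin-3, a short fibulin of connective tissue and blood vessels. Its intensities were 1147, 1021 and 879 in p53- Rb- Myc+, 11, 14.9 and 0.0223 in p53- Myc+, 125, 149 and 149 in p53- Rb-, 97.7, 141 and 140 in p53-, and 79.6, 71.3 and 73.1 in WT arrays. The p53- Rb- Myc+ arrays were all above and the p53- Myc+ arrays all below every other array, while p53- Rb- and p53- arrays overlapped. Fbln1 encodes fibulin-1, which binds fibronectin and basement membrane proteins and is found in elastic fibres. Its intensities were 352, 369.5 and 346 in p53- Rb- Myc+, 528, 613 and 513 in p53- Myc+, 188, 211 and 304 in p53- Rb-, 76.5, 83.3 and 83.2 in p53-, and 89.6, 70.3 and 82.3 in WT arrays. These groups did not overlap, apart from p53- and WT. Fbln5 encodes fibulin-5, which joins tropoelastin to microfibrils and binds integrins. Its intensities were 107, 115 and 98.8 in p53- Rb- Myc+, 168, 251 and 178 in p53- Myc+, 560, 622 and 786 in p53- Rb-, 166, 332 and 206 in p53-, and 295, 286 and 367 in WT arrays. The p53- Rb- arrays were all highest and the p53- Rb- Myc+ arrays all lowest, and the 3 groups between them overlapped their neighbours.

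Sequence before the transcription start is shown for these 3 fibulin genes, since their levels took different orders over the groups. RefSeq windows of assembly GRCm38.p6 were available for 6 of the 10 listed genes, and Mfap4, Mfap5, Fbn2 and Eln were not among them. Each sequence runs 5′ to 3′ on the strand of the gene and ends just before its most upstream annotated start, and capitals mark matches to 6 motifs searched on both strands. These were the E-box bound by MYC (CACGTG), the AP-1 site (TGANTCA), the GC box (GGGCGG), the CCAAT box (CCAAT), the TATA box (TATAAA) and the E2F site (TTTNGCGC).
Efemp1, chr11:28852955-28853153, plus strand: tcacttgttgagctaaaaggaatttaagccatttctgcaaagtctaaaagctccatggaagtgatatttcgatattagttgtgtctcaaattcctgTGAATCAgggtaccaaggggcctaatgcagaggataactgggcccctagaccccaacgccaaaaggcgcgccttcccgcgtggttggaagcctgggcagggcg
Fbln1, chr15:85205699-85205948, plus strand: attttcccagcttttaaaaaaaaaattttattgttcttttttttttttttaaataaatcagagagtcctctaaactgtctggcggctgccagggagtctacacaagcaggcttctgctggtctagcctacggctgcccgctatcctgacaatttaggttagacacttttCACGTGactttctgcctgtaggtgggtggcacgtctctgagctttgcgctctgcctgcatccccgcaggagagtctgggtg
Fbln5, chr12:101819120-101819369, minus strand: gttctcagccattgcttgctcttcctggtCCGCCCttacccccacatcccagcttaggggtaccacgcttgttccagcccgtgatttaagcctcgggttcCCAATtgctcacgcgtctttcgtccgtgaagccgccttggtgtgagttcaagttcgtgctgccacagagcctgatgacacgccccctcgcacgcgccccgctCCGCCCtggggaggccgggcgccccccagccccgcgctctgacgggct
The 199 bases of Efemp1 held 1 AP-1 match, 103 bases before the start. Of 32851 promoter windows, cut to their first 199 bases and so ending short of their own start, 5.55% held one. The 250 bases of Fbln1 held 1 E-box match, 81 bases before the start, as did 6.02% of windows of that length. The 250 bases of Fbln5 held GC boxes 221 and 48 bases before the start and a CCAAT box 150 bases before it, and 32.7% and 33.8% of windows held these motifs. No TATA or E2F match was found in these 3 windows. A match is a run of letters, and nothing about a factor was measured. The GC content was 49.7% for Efemp1, 46.4% for Fbln1 and 65.2% for Fbln5. Medians were 51.8% over the windows cut to 199 bases and 52.4% over windows of 250 bases.

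Comparisons between groups used limma on log2(intensity + 16), and a gene was called where its p, adjusted by Benjamini-Hochberg over 19938 genes, fell under 0.05. Fold changes are given as log2 values ± SE with 3 arrays per group. The constant of 16 makes them smaller than the true change where intensities are low, as for Mfap4, Efemp1 and Fbn2.

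In p53- against WT arrays, 1 of the 8 genes rose, 2 fell and 5 were not called, while 29% of all genes were called, 19.3% upward and 9.72% downward. The share of calls that were upward was 66.5% as deposited and 52.5% with arrays centred on their medians. Mfap4 fell by 1.87 ± 0.24, to a mean intensity of 25.9 ± 7.8 in p53- against 139 ± 36.9 in WT arrays (SD). Mfap5 fell by 1.34 ± 0.22, to 324 ± 93.5 in p53- against 822 ± 44.3 in WT arrays. How p53- and p53- Rb- arrays differed in Mfap4 and Mfap5 was known when the genes were grouped. These 2 falls, the only ones here, share the p53- arrays and are therefore a description. Efemp1 rose by 0.64 ± 0.20 (adjusted p = 0.023). This last call was lost when WT replicate 2 was left out (0.0614), likewise p53- replicate 2 (0.0738) and 3 (0.102), and with a constant of 1 (0.473), over a range of adjusted p from 0.00746 to 0.473 in 17 alternatives. Fbln5 differed by -0.45 ± 0.21 (adjusted p = 0.111), and without p53- replicate 2 by -0.72 (0.011). In the same arrays 7 of 16 fibroblast markers fell and 2 rose, 3 of 10 smooth muscle and pericyte markers fell, and 4 of 14 epithelial markers fell. Of 9 leukocyte markers 6 fell and 1 rose, with sums of 618 to 775 in p53- and 2239 to 2595 in WT arrays. The part of these cells in the values was not tested.

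Without the Myc retrovirus, deletion of Rb went with higher levels of 4 of the 8 genes in p53- Rb- against p53- arrays. None fell and 4 were not called, while 19.8% of all genes were called, 9.36% upward and 10.4% downward. The upward share of calls was 47.3%, and 55.8% with arrays centred. Mfap4 was higher by 3.10 ± 0.24, with a mean of 357 ± 152 in p53- Rb- against 25.9 ± 7.8 in p53- arrays. Mfap5 was higher by 2.51 ± 0.22, with a mean of 1918 ± 536 in p53- Rb- against 324 ± 93.5 in p53- arrays. These 2 differences were known when the genes were grouped and are given as a description, and the count of 4 includes them. Fbln5 rose by 1.46 ± 0.21 (adjusted p = 5.11e-05) and Fbln1 by 1.34 ± 0.17 (adjusted p = 1.25e-05), in all 3 p53- Rb- arrays against all 3 p53- arrays for each. Efemp1 differed by 0.15 (95% interval -0.27 to 0.58), Fbn2 by 0.38 (0 to 0.76), Mfap2 by -0.25 (-0.58 to 0.08) and Eln by -0.36 (-0.75 to 0.03). The p53- Rb- replicate 3 array was the highest of its group for 5 of the 8 genes, and without it and p53- replicate 2 the same number of genes, 4, were called.

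Markers of other cell types moved in the same comparison. Of 16 fibroblast markers 10 rose in p53- Rb- against p53- arrays and none fell, with Fap the lowest at 26.3 and 13.3. Of 10 smooth muscle and pericyte markers 5 rose, with sums of 5469 to 6285 in p53- Rb- and 2769 to 3702 in p53- arrays. None of 14 epithelial markers was called by limma. The part of these cells in the Mfap4, Mfap5, Fbln1 and Fbln5 values was not tested.

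**Figure D3:**
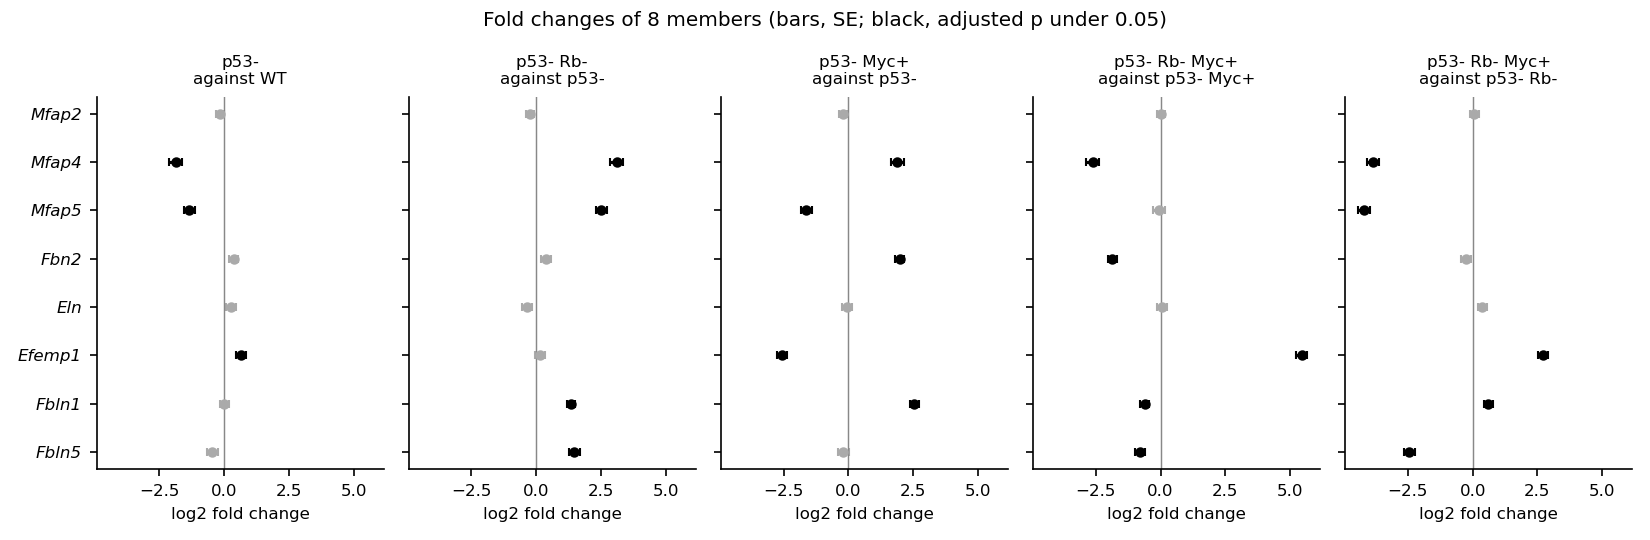
log2 fold change ± SE of 8 genes in 5 comparisons, with black points at an adjusted p under 0.05. Efemp1 in p53- Rb- Myc+ against p53- Myc+ lies farthest right, at 5.44, while Mfap2 and Eln lie between -0.36 and 0.38 in all 5 panels.

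The Myc retrovirus in p53-deleted cells went with 3 genes up, 2 down and 3 not called in p53- Myc+ against p53- arrays, where 33.3% of all genes were called, 13.1% upward and 20.2% downward. The upward share of calls was 39.2%, and 59.2% with arrays centred. Fbln1 rose by 2.54 ± 0.17 (adjusted p = 3.19e-11), with 551 ± 53.8 in p53- Myc+ against 81.0 ± 3.92 in p53- arrays. Fbn2 rose by 1.98 ± 0.18 (adjusted p = 1.05e-08), with 139.8 ± 6.85 in p53- Myc+ against 24.2 ± 9.38 in p53- arrays, and by 1.21 with a constant of 64. Mfap4 rose by 1.89 ± 0.24, and by 1.17 with that constant. Efemp1 fell by 2.57 ± 0.20 (adjusted p = 7.09e-10) to a mean of 8.61 in p53- Myc+ against 126 in p53- arrays, with changes of -1.39 and -4.44 under constants of 64 and 1. Mfap5 fell by 1.62 ± 0.22, to 94.6 ± 28.9 in p53- Myc+ against 324 ± 93.5 in p53- arrays. For Mfap4 and Mfap5 the p53- levels relative to p53- Rb- arrays were known beforehand. Both values are therefore a description, and the counts include them. Mfap2, Eln and Fbln5 differed by -0.21, -0.04 and -0.19. In the same arrays all 14 epithelial markers fell, 12 of 16 fibroblast markers rose and 2 fell, 1 of 10 smooth muscle and pericyte markers rose and 4 fell, and 4 of 9 leukocyte markers fell. Their part in these values was not tested.

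With the Myc retrovirus, deletion of Rb went with a rise of Efemp1 and lower levels of 4 genes in p53- Rb- Myc+ against p53- Myc+ arrays. The other 3 were not called, and 4.69% of all genes were called, 3.29% upward and 1.4% downward. The upward share of calls was 70.2%, and 55.8% with arrays centred. Efemp1 rose by 5.44 ± 0.20 (adjusted p = 4.68e-14), with 1016 ± 134 in p53- Rb- Myc+ against 8.61 ± 7.69 in p53- Myc+ arrays, and by 3.89 with a constant of 64. Mfap4 fell by 2.62 ± 0.24 (adjusted p = 5.79e-08), with 9.10 ± 3.39 in p53- Rb- Myc+ against 138 ± 20.6 in p53- Myc+ arrays, and its change was -1.47 with a constant of 64. Fbn2 fell by 1.86 ± 0.18 (adjusted p = 2.98e-07), to 27.2 ± 4.19 in p53- Rb- Myc+ against 139.8 ± 6.85 in p53- Myc+ arrays, and its change was -1.16 with that constant. Fbln5 fell by 0.79 ± 0.21 (adjusted p = 0.029) and Fbln1 fell by 0.61 ± 0.17 (adjusted p = 0.0383). Fbln1 lost its call without any 1 of the 6 arrays (adjusted p 0.0549 to 0.148, range over 16 alternatives 0.00825 to 0.148). Fbln5 lost it without p53- Myc+ replicate 2 (0.162) or p53- Rb- Myc+ replicate 1 (0.0867), 2 (0.0663) or 3 (0.107), over a range of 0.0118 to 0.162. With a constant of 1 both calls were lost (0.0747 for Fbln1 and 0.0673 for Fbln5), and that of Fbln1 also when only these 6 arrays were fitted (0.0516). Mfap5 differed by -0.06 (95% interval -0.52 to 0.39). Of 16 fibroblast markers 4 fell and none rose here, 1 of 10 smooth muscle and pericyte markers fell, and of 14 epithelial markers 2 rose; their part in these values was not tested.

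The change in arrays labelled Rb- differed with and without the Myc+ label for 6 of the 8 genes, tested as an interaction. It was called for 13.6% of all genes, 8.78% with a higher and 4.86% with a lower Rb change under Myc+. The higher share of calls was 64.4%, and 45.1% with arrays centred. The difference, the Rb change with Myc+ minus that without, was 5.28 ± 0.29 for Efemp1 (adjusted p = 1.05e-10). It was -5.72 ± 0.33 for Mfap4 and -2.57 ± 0.31 for Mfap5, whose change was positive without the retrovirus and near 0 with it. For Mfap4 and Mfap5 the change without the retrovirus was already known, so both values are a description, and the count of 6 includes them. Fbn2 had a difference of -2.24 ± 0.26, Fbln5 of -2.25 ± 0.30 and Fbln1 of -1.95 ± 0.24, with adjusted p of 4.69e-06, 2.33e-05 and 8.52e-06. Mfap4, Fbln1 and Fbln5 were thus higher with Rb deletion without the retrovirus and lower with Rb deletion in its presence, the fall of both fibulins resting on calls lost without single arrays. Mfap2 and Eln had differences of 0.28 ± 0.22 (adjusted p = 0.429) and 0.41 ± 0.26 (adjusted p = 0.313). Rb1 was low in p53- Myc+ arrays too, at 26.8 to 48.0, below the 52.7 to 64.2 of p53- Rb- arrays. The Rb comparison with Myc+ therefore set a Rb1 mean of 18.7 in p53- Rb- Myc+ against 36.4 in p53- Myc+ arrays. That without Myc+ set 57.4 in p53- Rb- against 162 in p53- arrays. Epithelial sums were at most 774 in both Myc+ groups and at least 20100 in the other groups, and the part of this difference was not tested. Among the fibroblast markers, 11 of 16 had a lower Rb change with the retrovirus and 1 a higher one. Of 10 smooth muscle and pericyte markers 4 had a lower one and none a higher one, and their part was not tested.

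**Figure D4:**
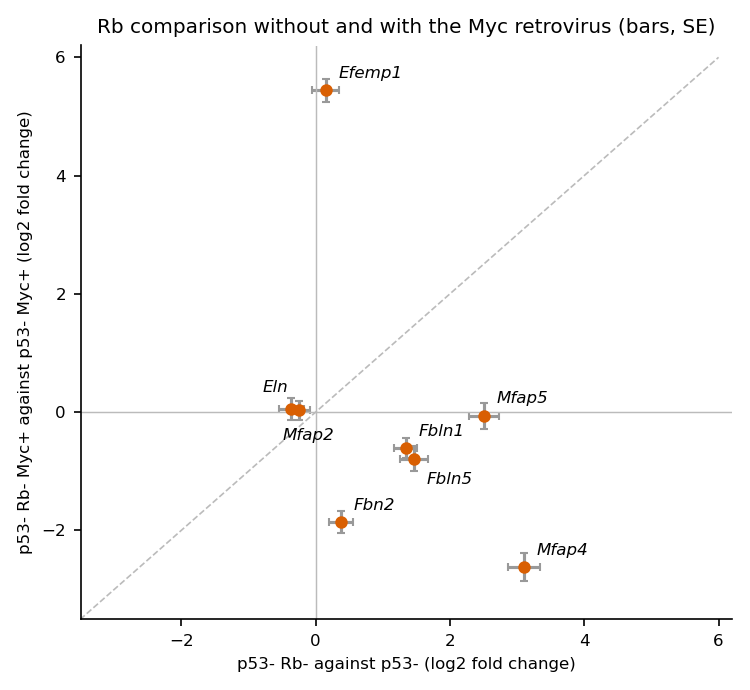
log2 fold change of 8 genes in p53- Rb- Myc+ against p53- Myc+ arrays (y) plotted against that in p53- Rb- against p53- arrays (x), with SE bars and a dashed line of equal change. Efemp1 lies at 0.15 on x and 5.44 on y, and Mfap4 at 3.10 on x and -2.62 on y.

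In cells lacking p53 and Rb, the Myc retrovirus went with 2 genes up, 3 down and 3 not called in p53- Rb- Myc+ against p53- Rb- arrays. Of all genes 36.3% were called, 17.6% upward and 18.7% downward. The upward share of calls was 48.5%, and 57.1% with arrays centred. Mfap5 fell by 4.19 ± 0.22, to 88.0 ± 14.5 in p53- Rb- Myc+ against 1918 ± 536 in p53- Rb- arrays. Mfap4 fell by 3.83 ± 0.24, and its change was -2.47 with a constant of 64. For both genes the p53- Rb- levels relative to p53- arrays were known beforehand. These 2 falls are therefore a description, and the count of 3 includes them. Fbln5 fell by 2.44 ± 0.21 (adjusted p = 2.99e-09), to 107 ± 8.07 in p53- Rb- Myc+ against 656 ± 117 in p53- Rb- arrays. Efemp1 rose by 2.71 ± 0.20 (adjusted p = 2.94e-10). Fbln1 rose by 0.60 ± 0.17 (adjusted p = 0.00751), a call lost without p53- Rb- replicate 1 (0.0653, range over 17 alternatives 1.09e-05 to 0.0653). Eln differed by 0.38 (95% interval -0.01 to 0.76), with all 3 p53- Rb- Myc+ arrays above all 3 p53- Rb- arrays and an adjusted p of 0.122. All 14 epithelial markers fell in this comparison, and 6 of 16 fibroblast markers rose and 7 fell. Of 10 smooth muscle and pericyte markers 7 fell and none rose, with sums of 2012 to 2190 in p53- Rb- Myc+ and 5469 to 6285 in p53- Rb- arrays. The part of these cells in the values was not tested.

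Set against WT, p53- Rb- arrays had 6 of the 8 genes higher, none lower and 2 not called, with 14.6% of all genes called, 10.8% upward and 3.75% downward. The upward share of calls was 74.2%, and 65% with arrays centred or 58.8% with quantile normalization. Fbln1 rose by 1.35 ± 0.17 and Fbln5 by 1.01 ± 0.21 (larger adjusted p of these 0.00253). Mfap4 rose by 1.22 ± 0.24 and Mfap5 by 1.17 ± 0.22. For Mfap4 and Mfap5 the p53- Rb- levels relative to p53- arrays were known beforehand. Both values are therefore a description, and the count of 6 includes them. Efemp1 rose by 0.79 ± 0.20 (adjusted p = 0.0121) and Fbn2 by 0.75 ± 0.18 (adjusted p = 0.00848). The Efemp1 call was lost without p53- Rb- replicate 2 (0.0507) and with a constant of 1 (0.456), and the Fbn2 call without p53- Rb- replicate 3 (0.0506), over ranges of 0.00293 to 0.456 and 0.00674 to 0.0506. Of 16 fibroblast markers 10 rose and none fell in the same arrays, 4 of 10 smooth muscle and pericyte markers rose and 1 fell, and 5 of 9 leukocyte markers fell. Their part was not tested.

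In p53- Myc+ against WT arrays 2 genes rose, 3 fell and 3 were not called, with 44.2% of all genes called, 23.4% upward and 20.9% downward. Fbln1 rose by 2.55 ± 0.17 and Fbn2 by 2.35 ± 0.18, while Mfap5 fell by 2.95 ± 0.22 and Efemp1 fell by 1.93 ± 0.20. Mfap4 differed by 0.02 (95% interval -0.47 to 0.51). In p53- Rb- Myc+ against WT arrays 3 rose, 3 fell and 2 were not called, with 45.4% of all genes called, 26.3% upward and 19.1% downward. Efemp1 rose by 3.50 ± 0.20 and Fbln1 by 1.95 ± 0.17, while Mfap5 fell by 3.02 ± 0.22, Mfap4 fell by 2.60 ± 0.24 and Fbln5 fell by 1.43 ± 0.21. The remaining calls were weaker. Fbln5 fell by 0.64 ± 0.21 in p53- Myc+ against WT arrays (adjusted p = 0.0163, range over 16 alternatives 0.00576 to 0.0758). That call was lost without WT replicate 3 or p53- Myc+ replicate 1 or 3, at adjusted p of 0.069, 0.0758 and 0.0558. Fbn2 rose by 0.50 ± 0.18 in p53- Rb- Myc+ against WT arrays (adjusted p = 0.0322, range over 15 alternatives 0.0199 to 0.114). That call was lost without WT replicate 2 (0.114) or 3 (0.0549) or p53- Rb- Myc+ replicate 1 (0.0894) or 3 (0.0948), with quantile normalization (0.0666), and with a constant of 64 (0.0888), where the change was 0.21. The comparisons with WT share the WT arrays. Against WT, all 14 epithelial markers and 7 of 9 leukocyte markers fell in each Myc+ group. Of 16 fibroblast markers 8 rose and 3 fell in p53- Rb- Myc+ and 10 rose and 2 fell in p53- Myc+ arrays, and of 10 smooth muscle and pericyte markers 8 fell in p53- Rb- Myc+ and 7 in p53- Myc+ arrays. Their part in these values was not tested.

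Other genes of microfibril and elastic fibre assembly were described from 10 lists of 61 genes, of which 58 had a probe set. In p53- Rb- against p53- arrays 19 of the 58 rose, 6 fell and 33 were not called, with a median change of 0.10 against -0.08 over all genes, of which 9.36% rose and 10.4% fell. Lysyl oxidases, which cross-link elastin and collagen, accounted for 3 of these rises among 4 measured: Loxl3 rose by 1.91 ± 0.17, Loxl1 by 1.69 ± 0.22 and Lox by 0.94 ± 0.16. Of 4 latent TGF-beta binding proteins, which anchor the latent growth factor to fibrillin, Ltbp3 rose by 1.00 ± 0.19 and Ltbp2 by 0.73 ± 0.19. Ltbp4, which aids elastic fibre assembly, differed by 0.48 ± 0.20 (adjusted p = 0.0973). The fibulin Fbln2 rose by 0.80 ± 0.17, while Hmcn1, a long member of the fibulin family, fell by 0.69 ± 0.19. Emilin2 and Emilin1, elastic fibre glycoproteins, rose by 1.56 ± 0.27 and 0.70 ± 0.21.

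Among 10 ADAMTS and ADAMTS-like genes, whose products act on or bind microfibrils, none rose in p53- Rb- against p53- arrays and 1 fell, Adamts6, by 0.67 ± 0.18. Of 6 microfibril-binding matrix genes, the proteoglycan genes Bgn and Hspg2 rose by 1.02 ± 0.16 and 0.77 ± 0.18, and Fmod fell by 0.59 ± 0.21. Of 7 integrin subunits for fibrillin 3 rose, 1 fell and 3 were not called, with Itga5 and Itgb5 higher by 1.40 ± 0.16 and 1.03 ± 0.18 and Itgav lower (-0.50 ± 0.16). Of 8 growth factors held by microfibrils 3 rose, 1 fell and 4 were not called, among them Tgfb1, which rose by 1.17 ± 0.16, and Tgfb3, which rose by 1.13 ± 0.18. Of 8 proteases that can degrade elastin, 3 rose and 1 fell, among them Mmp2 (1.37 ± 0.17), Ctsk (1.30 ± 0.17) and Mmp14 (0.72 ± 0.15). Mfap3 and Mfap3l, which share the name but not the protein family, both differed by 0.03.

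**Figure D5:**
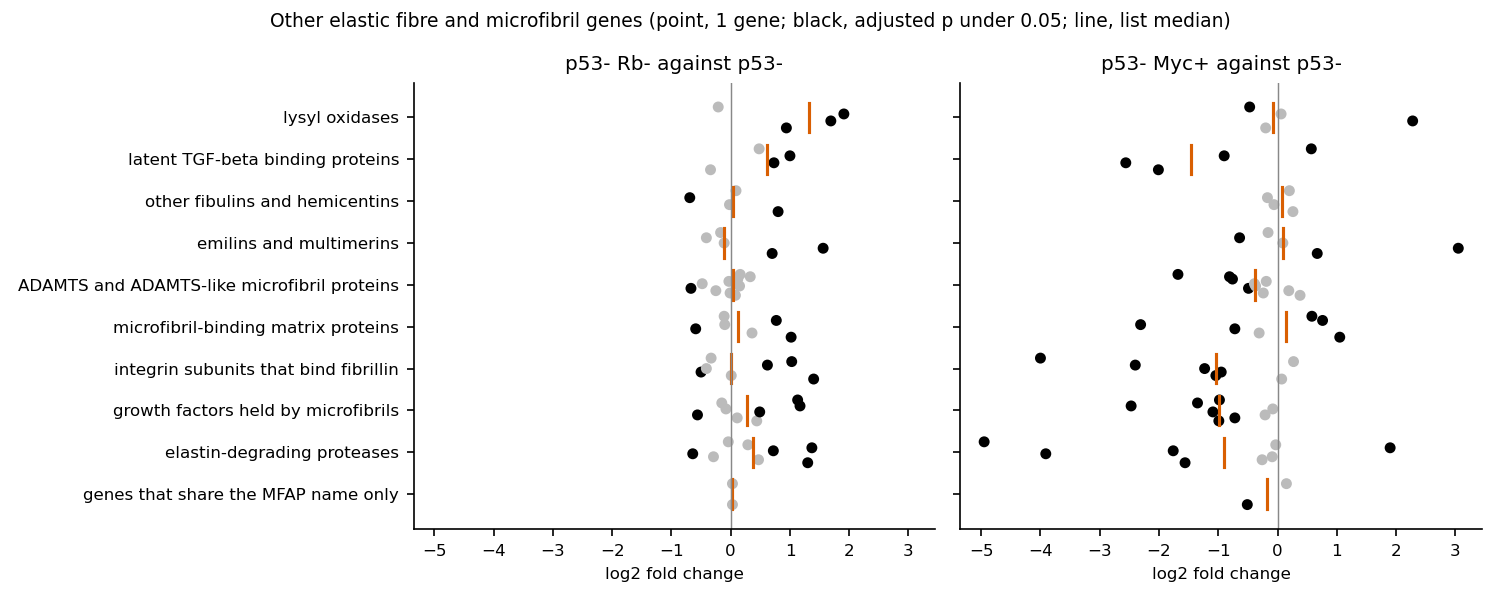
log2 fold change of 58 other elastic fibre and microfibril genes by list in p53- Rb- against p53- (left) and p53- Myc+ against p53- arrays (right). Black points passed an adjusted p of 0.05 and orange lines are list medians; 19 genes rose and 6 fell on the left, 8 rose and 27 fell on the right.

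In p53- Myc+ against p53- arrays 8 of the 58 rose, 27 fell and 23 were not called, with a median change of -0.34 against -0.09 over all genes, of which 13.1% rose and 20.2% fell. Emilin2 rose by 3.05 ± 0.27 and Loxl1 by 2.28 ± 0.22. Ltbp2 fell by 2.56 ± 0.19, Ltbp1 fell by 2.01 ± 0.16, and the fibronectin gene Fn1 fell by 2.31 ± 0.14. All 5 called integrin subunits fell, and Itgb6, an epithelial subunit that activates latent TGF-beta, had the most negative change at -4 ± 0.17, followed by Itgb3 at -2.40 ± 0.20. Of 8 growth factor genes 6 fell, including Tgfb1 (-2.47 ± 0.16) and Tgfb2 (-1.35 ± 0.18). The elastin-degrading proteases Mmp9 and Mmp12 had changes of -4.95 ± 0.16 and -3.91 ± 0.19. Thsd4, which encodes an ADAMTS-like protein that promotes microfibril assembly, fell by 1.68 ± 0.18 to a mean of 2.21 in p53- Myc+ against 42.2 in p53- arrays.

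In p53- Rb- Myc+ against p53- Myc+ arrays 3 of the 58 rose, 7 fell and 48 were not called, beside 3.29% of all genes higher and 1.4% lower. The interaction was called for 18 of them, 14 with a lower and 4 with a higher Rb change in the presence of the retrovirus, and 40 were not called. Over all genes 4.86% had a lower and 8.78% a higher change. The lower ones included Loxl3 (-2.93 ± 0.25), Mmp2 (-2.63 ± 0.24), Loxl1 (-1.84 ± 0.30), Bgn (-1.80 ± 0.23), Ctsk (-1.80 ± 0.24) and Fbln2 (-1.61 ± 0.24). Tgfb2 and Hmcn1 were among the higher ones, at 0.96 ± 0.25 and 1.06 ± 0.26. All these examples were picked by their change in p53- Rb- against p53- or p53- Myc+ against p53- arrays. Both changes enter the interaction with a minus sign, so the values of the examples are a description.

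The genes whose profiles lay nearest to each member were found from the root mean square difference of log2 values over the 15 arrays, each profile centred on its own mean. This likeness is a description of arrays that share groups and preparation, with no test. Nearest to Mfap5 were Scnn1a and Gpx7, with differences of 0.37 and 0.40. Nearest to Mfap4 were Rarres2 (0.56) and Thbs2 (0.66), and nearest to Efemp1 were Igfbp4 (0.88) and Stra6 (0.91), so both had looser matches. Rarres2 shared the high level in p53- Rb- arrays and the low level in p53- Rb- Myc+ arrays, with means of 148 in p53- Rb- Myc+, 625 in p53- Myc+, 1802 in p53- Rb-, 472 in p53- and 1026 in WT arrays. Igfbp4 had its highest mean in p53- Rb- Myc+ arrays, 742, and its lowest in p53- Myc+ arrays, 32.8. The nearest to Fbln1 were Scarf2 (0.23) and Gypc (0.24), to Fbln5 Egr2 (0.27) and Chst11 (0.29), and to Fbn2 Ank2 (0.33) and Lgi2 (0.34). Flat profiles match easily, and Mfap2 was nearest to Col6a5 (0.10) and Kcnab3 (0.11), and Eln to Nrxn2 (0.12) and Tas2r113 (0.12). Among the members themselves the closest pair was Mfap2 and Eln at 0.24, followed by Fbn2 and Fbln1 at 0.63, while Mfap4 and Mfap5 were 1.27 apart.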

How the data were processed

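Transcripts were measured in 15 samples, 1 array each, 3 per group. The deposited values are intensity per probe set on a linear scale. Per the submitters' processing notes, they were made in Affymetrix Expression Console 1.1. RNA was amplified with the WT-Ovation Pico system, per the labels' protocols. For summarisation and scaling, the method is not given in the sources used here. Probe sets were named from the platform annotation: 21789 of 35556 had 1 symbol, giving 19938 genes.

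All arrays entered 1 fit of 5 group means of log2(intensity + 16) by lmFit and eBayes of limma 3.58.1 (R 4.3.3), 2-sided, checked on simulated data. The members and gene lists were chosen with earlier results of these data known. Named genes were all members, Rb1, Myc, the nearest 2 profiles per member, and up to 3 and 2 genes per list with the smallest p in the Rb and the Myc comparison without the other alteration, from which the interaction examples were taken.

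Alternatives were constants of 1 and 64, median centring, quantile normalization, a level filter, all probe sets averaged, array weights, a variance trend, fits on the compared groups alone, a replicate block and leaving out each array; leaving out p53- replicate 2 together with p53- Rb- replicate 3 was added after the data were seen. Same-numbered arrays of p53- Rb- Myc+ and p53- Myc+ deviated together (r 0.102 to 0.379), and in no other comparison was the smallest r as high. The labels state no pairing. Differently numbered arrays were not set beside these, so whether the numbers pair the arrays was not tested. The main fit modelled no pairing, so the SE and p-values given are unpaired. The replicate block, with the same replicate terms for all 5 groups, was run only as an alternative.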

Additional observations from a re-analysis of the deposited data

Results flagged for a closer look

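The change in arrays labelled Rb- differed with and without the Myc+ label for 6 genes, by the interaction in limma. Over all genes 13.6% were called, 8.78% with a higher and 4.86% with a lower Rb change under Myc+. Rb1 was also low in p53- Myc+ arrays, at 26.8 to 48.0, and epithelial sums were at most 774 in both Myc+ groups. For Mfap4 and Mfap5 the change without the retrovirus was known when the genes were grouped, so their values are a description. The other 4 were tested, but within a set chosen with earlier results of these data known. The Rb change with Myc+ minus that without was -5.72 for Mfap4, -2.57 for Mfap5, -2.24 for Fbn2, 5.28 for Efemp1, -1.95 for Fbln1 and -2.25 for Fbln5, on the log2(intensity + 16) scale. No group had enough arrays for a test of single outlying arrays.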

How the results depend on the processing

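Over 72 pairs of gene and comparison, each rerun under 15 to 23 alternatives, 37 of the 45 calls kept their call and direction throughout, 8 lost the call somewhere and 7 further pairs gained one; no call turned its sign. In p53- Rb- Myc+ against p53- Myc+ arrays, 5 genes were called, but 3 with a constant of 1 and 3 to 4 without single arrays. The fit with the replicate block also called 5 there, and it changed no call of a member in any comparison. The calls gained were of Fbln5 in p53- against WT, Fbn2 and Eln in p53- Rb- against p53-, Eln in p53- Rb- Myc+ against p53- Rb-, and Mfap2 against WT in p53- Rb-, p53- Myc+ and p53- Rb- Myc+ arrays. Counts over all genes moved more: 5780 in p53- against WT ranged from 3470 to 7381, 3950 in p53- Rb- against p53- from 2098 to 8518, 2903 in p53- Rb- against WT from 1697 to 5254, 935 in p53- Rb- Myc+ against p53- Myc+ from 649 to 1345, and 2719 for the interaction from 1762 to 5404. Centring the arrays moved the median change over all genes from -0.09 to 0.11 in p53- Myc+ against p53- and from 0.13 to 0 for the interaction, and quantile normalization moved it from 0.12 to -0.02 in p53- against WT. A level filter at the median gave Fbn2 no value. Efemp1 in p53- Myc+ arrays and Mfap4 in p53- Rb- Myc+ arrays were near the bottom of the scale, where the constant set the size of the change.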
